A study of Mus musculus with 6 samples.

Results

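Chemokines and chemokine receptors were taken as all genes whose symbol is Ccl, Ccr, Cxcl, Cxcr, Cx3cl, Cx3cr, Xcl or Xcr directly followed by a digit, on probe sets that the platform annotation gives exactly 1 symbol. The rule used names only, and it found 50 of the 18193 genes named on the array, 33 ligands and 17 receptors, on 78 probe sets. Of these, 27 ligands and 10 receptors lay above the intensity filter described with the processing and were tested, and 13 genes were below it. Liver RNA came from C57BL/6 mice that had received an intravenous AAV8 vector carrying either luciferase, the control, or Nfkbiz, and after 4 weeks were fed CDAHFD, a choline-deficient high-fat diet used as a model of nonalcoholic fatty liver disease, for 4 weeks. Both groups therefore carried a vector and ate the diet, and each had 3 samples with 1 array each. No animals on a normal diet or without a vector are analysed here, and the labels do not state the vector's promoter or the age and sex of the mice. Values are MAS5 intensities, the brightness of a probe set on a linear scale, and a difference is the mean log2 value of the AAV8-Nfkbiz group minus that of the control.

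Hepatocyte transcripts were bright on every array, the summed intensity of 10 hepatocyte markers lying between 288196 and 339028. The vector's gene was seen on 1 of its 3 probe sets: 1448728_a_at read 221, 230 and 180 in the control livers and 4424, 4073 and 2006 in the Nfkbiz livers (limma adjusted p = 0.000789 over 23311 probe sets). The other Nfkbiz probe sets had differences of 0.30 ± 0.19 and -0.89 ± 0.54 (SE) and did not pass. In tissue RNA, fewer cells of a type and less RNA per cell cannot be told apart.

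Chemokines are small secreted proteins that bind G protein-coupled receptors on leukocytes and steer their migration, and they are classed by the spacing of their first cysteines as CC, CXC, CX3C or XC. In the liver they are made by Kupffer cells, endothelium, stellate cells and hepatocytes, and in fatty liver disease they are known for bringing monocytes, neutrophils and lymphocytes into the tissue. Nfkbiz encodes IκBζ, a nuclear protein that works with NF-κB at the promoters of inflammatory genes, among which are several chemokine genes.

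Promoter sequences were searched for the κB consensus, the site bound by NF-κB, because the vector's product acts with that factor. Of 10 members with a match, 5 ligands are shown: Cxcl1, Cxcl2 and Cxcl3, which share one site, Cxcl10, which also holds an interferon element, and Ccl9, which has an unadjusted p below 0.05. They were chosen after their values were seen, and Ccl1, Ccl20, Ccr1, Ccr3 and Ccr6 are not shown. RefSeq promoter sequences of GRCm38.p6 were found for 37 of the 50 genes. No sequence was found for Ccl2, Ccl4, Ccl5, Ccl7, Ccl11, Ccl24, Cxcl5, Cxcl11, Cxcl16, Cxcl17, Ccr7, Ccr10 and Cxcr5, so these were not searched. Ccl5 and Ccl24 are among the members with an unadjusted p below 0.05. In the 250 bases before the gene start, searched on both strands, the κB consensus occurred in 7 of 26 ligand promoters (26.9%) and 3 of 15 receptor promoters (20%), and in 7.25% of all 32851 promoters. Capitals mark matches to that consensus, and in Cxcl10 also a match to the interferon-stimulated response element. Overlapping matches on both strands run together.
Cxcl1: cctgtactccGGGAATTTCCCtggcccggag
Cxcl2: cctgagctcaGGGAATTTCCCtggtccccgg
Cxcl3: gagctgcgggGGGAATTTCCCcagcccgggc
Cxcl10: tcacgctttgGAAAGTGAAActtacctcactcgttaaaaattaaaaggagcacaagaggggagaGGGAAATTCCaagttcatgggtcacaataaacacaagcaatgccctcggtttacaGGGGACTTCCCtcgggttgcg
Ccl9: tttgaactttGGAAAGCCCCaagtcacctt
The Cxcl1, Cxcl2 and Cxcl3 stretches lie on the plus strand at chr5:90891164-90891194, chr5:90903792-90903822 and chr5:90786018-90786048, and all 3 hold the same run of 11 capitals. The Cxcl10 stretch is on the minus strand at chr5:92348973-92349112, and the Ccl9 stretch on the minus strand at chr11:83578652-83578681. The interferon-stimulated response element occurred in 2 of 26 ligand promoters, Cxcl10 and Cxcl14, and in 2.98% of all promoters. The interferon-gamma-activated site TTCNNNGAA occurred in 2 of 26 ligand promoters (7.69%) and in 7.02% of all promoters. For Cxcl9, the member with the smallest p, none of the 3 motifs was found in this window, of which the 110 bases next to the start are shown, on the minus strand at chr5:92328080-92328189.
Cxcl9: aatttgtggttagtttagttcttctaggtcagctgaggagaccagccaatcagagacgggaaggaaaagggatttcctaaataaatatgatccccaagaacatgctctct
Only full matches were counted, and near matches were not searched for in any promoter. The Cxcl9 stretch holds gggatttcct, which departs from the κB consensus GGGRNNYYCC only in its last letter. In it R is A or G, Y is C or T, and N is any base. A match is a description of the letters and not of binding.

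No chemokine or receptor gene passed limma's test over all genes. The smallest adjusted p among the 37 tested was 0.257, for Cxcl9, whereas 30 of 13312 genes (0.225%) passed, 9 of them higher (0.0676%). At an unadjusted p below 0.05 there were 5 members (13.5%), against 12.0% of all genes tested, a share near the background. The 5 were all ligands with higher readings in the Nfkbiz livers, Cxcl9, Ccl9, Ccl6, Ccl5 and Ccl24, and of all genes 5.03% were higher at that level and 7.00% lower. Without limma's variance trend, Cxcl9 and Ccl9 stayed below that level and Ccl5, Ccl6 and Ccl24 did not, while Ccl7 and Ccr1l1 entered as higher and Cx3cl1 as lower. Positive differences were found for 26 of the 37 members (70.3%), against 47.8% of all genes, and the median difference was 0.28 over the ligands and 0.15 over the receptors, against -0.016 over all genes. For 4 members no array of one group lay within the range of the other (10.8%), all higher in the Nfkbiz livers, against 18.0% of all genes in either direction and 8% in that direction. No member changed sign under quantile, loess or median scaling, and 0 members passed the adjusted threshold in any of the 17 alternative settings.

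**Figure D1:**
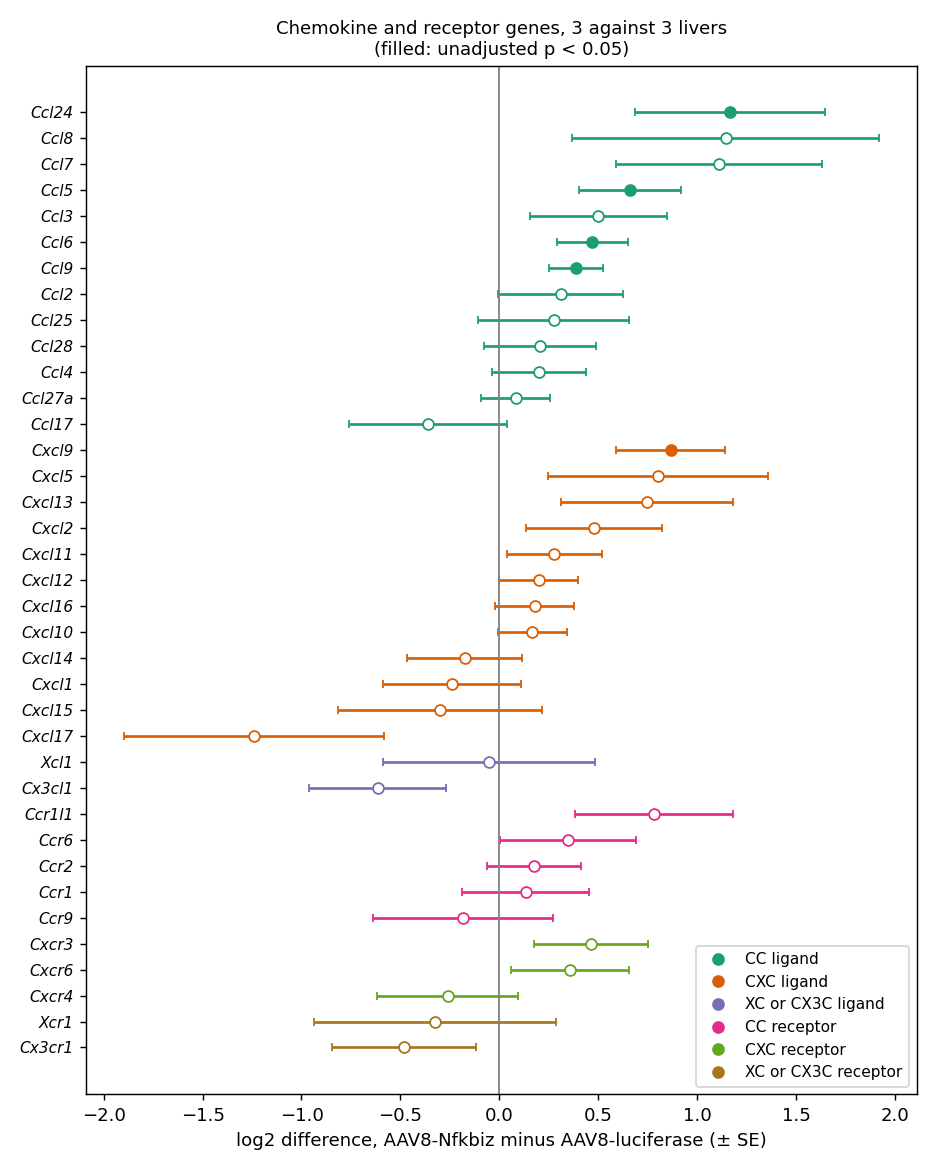
Log2 difference (x axis, AAV8-Nfkbiz minus AAV8-luciferase, with limma's SE) of the 37 tested chemokine and receptor genes (y axis), coloured by class, with filled points at an unadjusted p below 0.05. The 5 filled points, Ccl24, Ccl5, Ccl6, Ccl9 and Cxcl9, are ligands to the right of 0, and differences run from -1.24 for Cxcl17 to 1.16 for Ccl24.

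CC ligands, which act mainly on monocytes, macrophages, T cells and eosinophils, had positive differences for 12 of 13 tested genes, with a median of 0.39. Ccl5, Ccl9, Ccl6, Ccl3 and Ccl4 follow each other on chromosome 11 in the RefSeq gene table, and all 5 had positive differences, from 0.20 to 0.66. Ccl9, a rodent chemokine made by myeloid cells that binds Ccr1, read 6146, 5556 and 7081 in the control livers and 8292, 8965 and 7269 in the Nfkbiz livers. The groups did not overlap, the third arrays of both lying closest, and the difference was 0.39 ± 0.14 (SE, limma adjusted p = 0.308). Ccl6, its neighbour and also a macrophage product, read 1900.1, 2037 and 1635 against 3387, 2141 and 2318. All Nfkbiz arrays were again above all luciferase arrays, with the first standing well above the other two (0.47 ± 0.18, limma adjusted p = 0.341). Ccl5, which is released by T cells, NK cells and macrophages and draws T cells and monocytes, read 604, 722 and 703 against 1707, 919 and 769.6. The first Nfkbiz array stood far above the other Nfkbiz arrays, and the third just above the highest luciferase array (0.66 ± 0.26, limma adjusted p = 0.346). Without the first Nfkbiz array the Ccl5 difference was 0.32, and that of Ccl6 was 0.27.

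Ccl3 and Ccl4, macrophage and lymphocyte products that attract monocytes and T cells, did not separate the groups. Ccl3 read 178, 119 and 105 in the control livers and 264, 116 and 205 in the Nfkbiz livers (0.50 ± 0.34). For Ccl4 the readings were 386, 332 and 377 against 554, 284 and 464 (0.20 ± 0.24). In both genes the second Nfkbiz array was lower than most or all luciferase arrays.

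Ccl24, an eosinophil attractant made by macrophages that signals through Ccr3, had the largest positive difference of the family with an unadjusted p below 0.05. It read 131, 239.9 and 59.4 in the control livers and 333, 383 and 164 in the Nfkbiz livers (1.16 ± 0.48, limma adjusted p = 0.369). The third array was the lowest in each group, and the second luciferase array lay above the third Nfkbiz array, so the groups overlapped. Without the first Nfkbiz array, the second, or the third luciferase array its unadjusted p was above 0.05, with differences of 1.03, 0.93 and 0.64.

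The monocyte chemoattractants Ccl2, Ccl7, Ccl8 and Ccl12 lie in another run of CC genes on chromosome 11. Ccl7 read 77.7, 49.5 and 23.0 against 128, 75.0 and 93.0 (1.11 ± 0.52, limma adjusted p = 0.433), with the first luciferase array above the second Nfkbiz array, and its difference was 0.63 without the third luciferase array. Ccl8 read 17.3, 202 and 176 against 178, 245 and 151. The first luciferase array stood far below the other 5, and the difference of 1.14 ± 0.77 was -0.0061 without it. Ccl2, the main ligand of the monocyte receptor Ccr2, read 431, 240.0 and 203 against 443, 234 and 386 (0.31 ± 0.32, limma adjusted p = 0.746). The first array was the highest in both groups and the ranges overlapped almost fully. Without the first luciferase array the Ccl2 difference was 0.63, and without the third it was 0.088.

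The remaining CC ligands, mostly of epithelial or dendritic cells, overlapped between the groups. Differences were 0.28 ± 0.38 for Ccl25, a gut-homing signal, 0.21 ± 0.28 for the mucosal Ccl28 and 0.081 ± 0.17 for Ccl27a. Ccl17, a dendritic cell product that attracts T cells through Ccr4, was the 1 tested CC ligand with a negative difference. It read 112, 81.5 and 81.6 in the control livers and 106, 65.8 and 50.2 in the Nfkbiz livers (-0.36 ± 0.40).

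**Figure D2:**
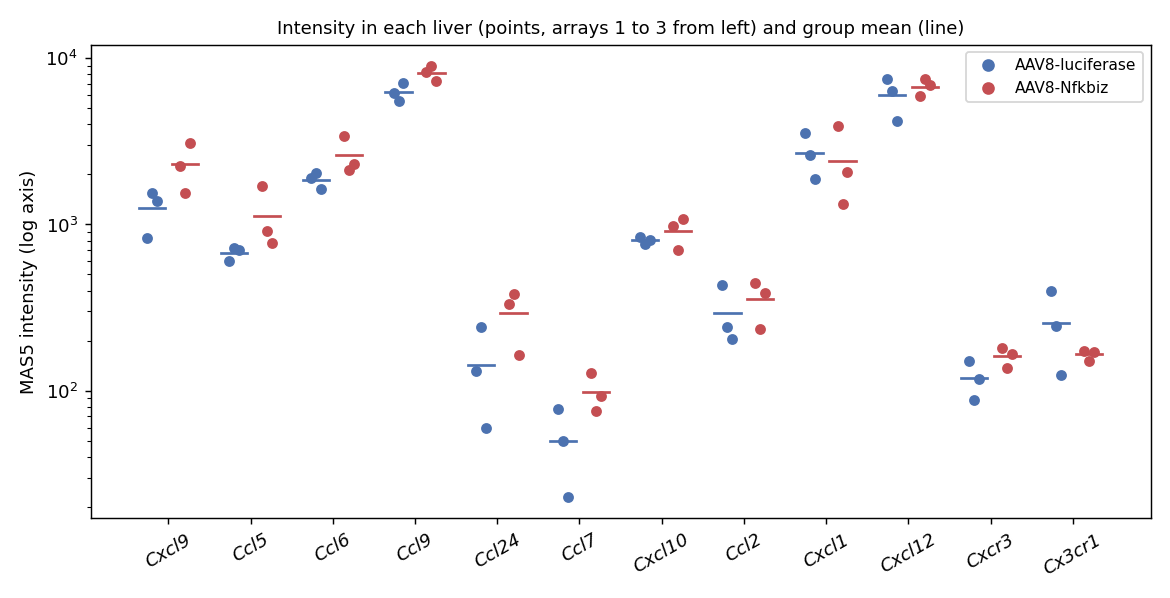
MAS5 intensity (y axis, log scale) of 12 chemokine and receptor genes (x axis) in each liver, blue for AAV8-luciferase and red for AAV8-Nfkbiz, with arrays 1 to 3 from left to right and lines at the group means. Cxcl9, Ccl5, Ccl6 and Ccl9 show no overlap between the groups, and the others overlap.

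CXC ligands comprise interferon-induced attractants of T and NK cells, attractants of neutrophils and several homeostatic chemokines, and 8 of 12 tested had positive differences, with a median of 0.19. Cxcl9, Cxcl10 and Cxcl11 are induced by interferon-gamma and share the receptor Cxcr3. Cxcl9 read 832, 1549 and 1389 in the control livers and 2256, 1555 and 3085 in the Nfkbiz livers. The second arrays of both groups nearly touched, at 1549.48 and 1554.52, and the group means were 1257 ± 377 and 2298 ± 766 (SD, n = 3). Its difference was 0.87 ± 0.27 (SE, limma adjusted p = 0.257). With any 1 array left out it stayed between 0.59 and 1.12. Cxcl9 was the 1 member with an unadjusted p below 0.05 in all 17 alternative settings, the largest being 0.0456. These settings do not include its dimmer probe set, 1456907_at, on its own, where limma's unadjusted p was 0.128.

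For Cxcl10 and Cxcl11 the groups overlapped. Cxcl10 read 843, 762 and 808 against 974, 701 and 1071, so that 2 Nfkbiz arrays were above and 1 was below every luciferase array (0.17 ± 0.17, limma adjusted p = 0.752). For Cxcl11, whose reading frame is broken in C57BL/6 mice, the readings were 211, 181 and 326 against 278, 261 and 306 (0.28 ± 0.24). Whether the differences of these 3 genes differ from each other was not tested.

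Cxcl1, Cxcl2 and Cxcl5, which attract neutrophils through Cxcr2, had no common direction. Cxcl1 read 3553, 2628 and 1876 in the control livers and 3886, 1322 and 2067 in the Nfkbiz livers (-0.24 ± 0.35, limma adjusted p = 0.825). It was highest on the first array of each group, and the Nfkbiz arrays spanned the luciferase range. Leaving out the first Nfkbiz array gave -0.65 and leaving out the second gave 0.13. Cxcl2 read 387, 206 and 216 against 599.95, 314 and 247 (0.48 ± 0.34), again with the first array of each group the highest. The Cxcl2 difference was 0.11 without the first Nfkbiz array. Leaving out the first control array gave 0.77, and leaving out the second gave 0.31. Cxcl5 read 166, 46.6 and 32.3 against 107, 109 and 113. Its Nfkbiz arrays were close together and the luciferase arrays far apart (0.80 ± 0.55). Leaving out the first control array gave a Cxcl5 difference of 1.5, and leaving out the third gave 0.32. Among the members with a κB match, out of the 37 with a promoter sequence, 6 were tested and 4 were below the filter. Their differences were 0.39 for Ccl9, 0.48 for Cxcl2, 0.17 for Cxcl10 and -0.24 for Cxcl1 among the ligands, and 0.13 for Ccr1 and 0.35 for Ccr6 among the receptors.

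On the probe set taken for each gene, the homeostatic CXC ligands overlapped between the groups. Other probe sets of Cxcl13 and Cxcl16, given below, did not. Cxcl12, which retains leukocytes and progenitors through Cxcr4, read 7531, 6393 and 4200.2 against 5937, 7457 and 6885 (0.20 ± 0.20). Only the third luciferase array was low, and without it the difference was -0.044. Cxcl16, a membrane-bound ligand that holds NKT cells in the liver through Cxcr6, read 635, 568 and 393 against 527, 576 and 676 (0.18 ± 0.20). Here too the third luciferase array was the lowest, and without it the value was -0.027. Cxcl13, the B cell attractant, read 113, 251 and 170.0 against 473, 348 and 139, the third Nfkbiz array falling among the luciferase arrays (0.75 ± 0.44, limma adjusted p = 0.530). Leaving out the first Nfkbiz array gave a Cxcl13 difference of 0.38, the third Nfkbiz array 1.26, and the first control array 0.46. Cxcl14 (-0.18 ± 0.29), Cxcl15 (-0.30 ± 0.52) and the mucosal Cxcl17 (-1.24 ± 0.66) had negative differences. Cxcl17 read 149.5, 85.9 and 74.0 against 98.1, 15.1 and 48.8, and without the second Nfkbiz array its difference was -0.51.

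The ligands of the smaller classes had no positive difference. Cx3cl1, a membrane-tethered chemokine of endothelial and epithelial cells, read 133, 85.8 and 131 in the control livers and 74.0, 62.1 and 90.1 in the Nfkbiz livers (-0.62 ± 0.34, limma adjusted p = 0.513). Its second luciferase array lay below the third Nfkbiz array. Xcl1, made by activated T and NK cells, had a difference of -0.053 ± 0.53 and changed sign when single arrays were left out.

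Receptors, which are carried mainly by the leukocytes that the ligands attract, had differences from -0.48 to 0.78 with a median of 0.15, and 0 of 10 reached an unadjusted p below 0.05 or separated the groups. Ccr2, the receptor of inflammatory monocytes, read 344, 222 and 243 in the control livers and 258, 267 and 388 in the Nfkbiz livers (0.17 ± 0.24, limma adjusted p = 0.815). Ccr1, shared by monocytes and neutrophils, read 166, 164 and 129 against 238, 103 and 188 (0.13 ± 0.32). In neither gene did the group ranges part. Ccr1l1, a Ccr1-like receptor gene, had the largest receptor difference and read 87.5, 60.4 and 48.3 against 159, 94.3 and 86.6 (0.78 ± 0.40, limma adjusted p = 0.471). Its first luciferase array lay just above the third Nfkbiz array. Ccr6, found on B cells and some T cells, had a difference of 0.35 ± 0.34 and the gut-homing Ccr9 one of -0.19 ± 0.45.

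Cxcr3, carried by activated T and NK cells, read 151, 87.3 and 118 in the control livers and 179.7, 137 and 166 in the Nfkbiz livers (0.46 ± 0.29, limma adjusted p = 0.560). The second Nfkbiz array lay below the first luciferase array. Cxcr6, of liver-resident lymphocytes, read 109, 143 and 139.7 against 239, 153 and 124 (0.36 ± 0.30), with the first Nfkbiz array apart from all others. Without that array the Cxcr6 difference was 0.091, and it was 0.23 with the first control array left out and 0.56 with the third Nfkbiz array left out. Cxcr4, the broadly expressed receptor of Cxcl12, read 336, 159 and 141 against 227, 126 and 153 (-0.26 ± 0.36). It was highest on the first array of each group, and its difference was 0.13 without the first luciferase array. Cx3cr1, of patrolling monocytes and some macrophages, read 398, 246 and 125 against 174, 152 and 169.8 (-0.48 ± 0.37, limma adjusted p = 0.639). The luciferase arrays spread widely around the tight Nfkbiz group, and the difference was -0.93 with the third of them left out and -0.087 with the first left out. Xcr1, of cross-presenting dendritic cells, had a difference of -0.33 ± 0.61.

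Of 30 textbook pairs of a ligand with its receptor, both genes were tested in 12. The differences were both positive in 8 pairs, both negative in 2, Cx3cl1 with Cx3cr1 and Xcl1 with Xcr1, and opposite in 2, Cxcl12 with Cxcr4 and Ccl25 with Ccr9. The pairs share genes, 3 of them containing Cxcr3, so they are not independent. Cxcl9 with Cxcr3 had 0.87 and 0.46, and Ccl7 with Ccr2 had 1.11 and 0.17. No receptor of a pair passed a threshold.

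Single arrays stood apart over many members at once. Of the 37 tested genes, 17 (45.9%) were highest on the first Nfkbiz array, which was the highest for 15.0% of all genes, and 0 were lowest there. The second luciferase array was the highest for 0 members, against 13% of all genes, the first for 8, against 23.4%, and the third for 4, against 18.3%. The lowest readings were most often on the second Nfkbiz array, for 12 members, against 23.6% of all genes, and on the third luciferase array, for 11, against 21.1%. Relative to each gene's mean, the median member lay 0.47 higher on the first Nfkbiz array, 0.091 higher on the third and 0.075 lower on the second (-0.075), while the luciferase arrays were at 0.073, -0.12 and -0.24. The second Nfkbiz array was thus below the first luciferase array. For all genes these medians lay between -0.037 and 0.064. Without the first Nfkbiz array, 3 members had an unadjusted p below 0.05, of which Cxcl9 was higher and Cxcl1 and Cxcl17 were lower in the Nfkbiz livers, and the receptors' median was -0.016. Without the first luciferase array 9 members reached it, all higher.

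**Figure D3:**
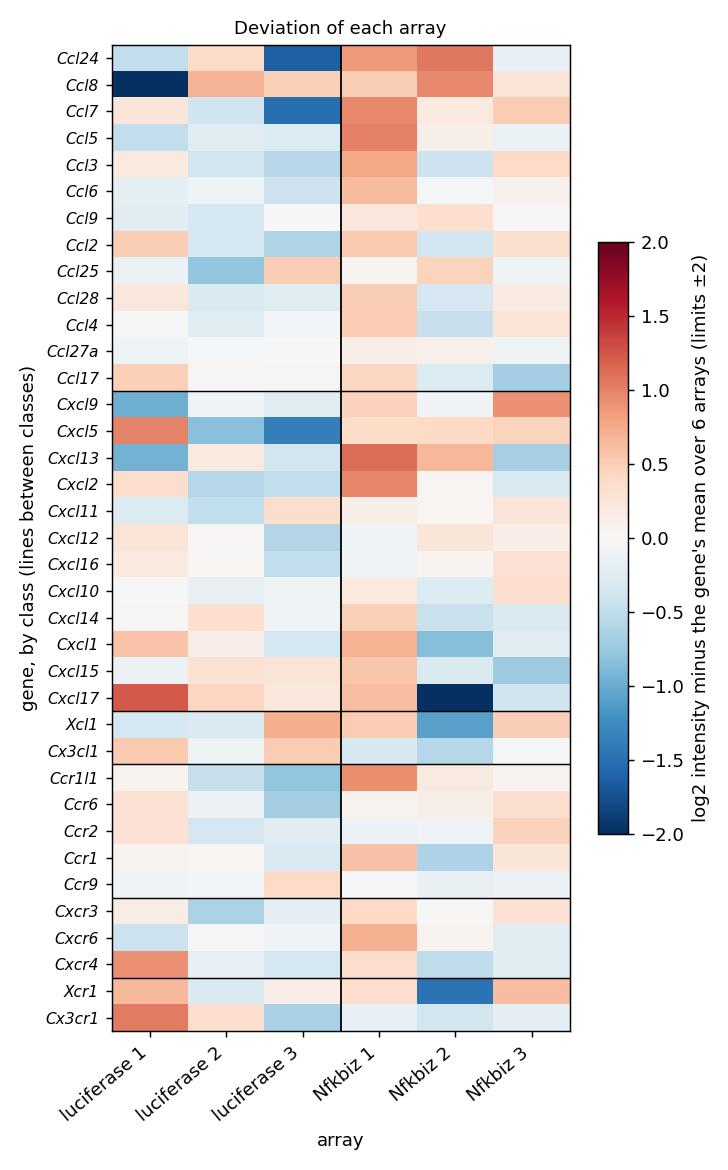
Log2 intensity of the 37 tested genes (rows, grouped by class) on each array (columns) after subtracting the gene's mean over the 6 arrays, with the colour scale ending at -2 and 2, beyond which Ccl8 on luciferase 1 and Cxcl17 on Nfkbiz 2 lie. The first Nfkbiz column is the highest of the 6 for 17 genes, and the second Nfkbiz column is the lowest for 12.

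Transcripts of leukocytes differed between the same arrays. The summed intensity of 8 neutrophil markers was 3219 on the first Nfkbiz array and between 1280.3 and 1813 on the other 5, with Camp and Ltf below the filter. Most of the 3219 came from S100a8 and S100a9, at 1433 and 960. These were the 2 of 8 markers (25%) higher at an unadjusted p below 0.05, against 5.03% of all genes. Differences were positive for 7 of the 8 and negative for Csf3r (-0.48 ± 0.35). The summed intensity of 12 T and NK cell markers was 2468 on the first Nfkbiz array, 1659 and 1976 on the other Nfkbiz arrays, and between 1236 and 1429 on the luciferase arrays, with Cd4 below the filter. In the fit, 9 of the 12 had positive differences. At an unadjusted p below 0.05, 3 (25%) were higher, Gzma, Klrk1 and Nkg7, against 5.03% of all genes. For 4 (33.3%) the groups did not overlap, all higher, against 8% of all genes. Gzma, the granzyme A gene of cytotoxic lymphocytes, was the 1 of 12 that passed over all genes (1.77 ± 0.28, limma adjusted p = 0.0427). Its adjusted p was above 0.05 when any 1 array was left out. The Gzma call was also lost with no filter (adjusted p = 0.0841), the mean of probe sets (0.0729), the most variable probe set (0.0732) and no variance trend (0.312) in limma. The sum of 14 Kupffer cell markers, all above the filter, ran from 38535 to 49691 on the luciferase and from 53901 to 67431 on the Nfkbiz arrays. Of these markers 0 passed over all genes and 12 had positive differences. At an unadjusted p below 0.05, 11 (78.6%) were higher, against 5.03% of all genes. Among them were Cd5l (0.83 ± 0.16), Clec4f (1.07 ± 0.28), Vsig4 (1.05 ± 0.27) and C1qa (0.59 ± 0.15). Of 10 monocyte and recruited macrophage markers, 0 passed and 2 (20%), Plac8 and Chil3, were higher at that level, against 5.03% of all genes. Differences were positive for 7 of the 10 and negative for 3, Gpnmb (-0.45 ± 0.31), Itgax (-0.36 ± 0.29) and Fabp5 (-0.037 ± 0.21). Sums for the groups overlapped for monocyte and recruited macrophage (18893 to 35546 against 25169 to 31166), B and plasma cell (1634 to 2614 against 1727 to 2318), dendritic cell (7183 to 9405 against 9257 to 9940), endothelial (7152 to 13552 against 11699 to 15289) and stellate cell markers (17390 to 30192 against 16248 to 23797). For 4 cholangiocyte markers they ran from 517 to 805 against 404 to 522. Most of the B and plasma cell sums came from Blnk, at 890 to 1821. Bst2, at 5172 to 8269, made up most of the dendritic cell sums. At an unadjusted p below 0.05, 2 of 8 B and plasma cell markers (25%) were higher, against 5.03% of all genes. These were Cd79b (1.19 ± 0.36) and Mzb1 (0.76 ± 0.26), and 2 of the 8 had negative differences. Of 9 dendritic cell markers, 0 reached that level. None of these markers was listed at 0 on any array, but neither was any other probe set, the lowest intensity being 0.10. The part of these cell types in the chemokine readings was not tested.

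Several members were read by more than 1 probe set. Of 13 genes with at least 2 probe sets above the filter, 11 had the same sign on all of them, and Cxcl1 and Ccl28 did not. Over 53 member probe sets, 8 (15.1%) had no overlap between the groups, all higher in the Nfkbiz livers, against 16.8% of all probe sets in either direction and 7.04% in that direction. At an unadjusted p below 0.05 there were 10 (18.9%), all higher, against 10.7% of all probe sets, and 0 passed after adjustment, against 0.120% of all. The smallest limma adjusted p was 0.197, for the second Ccl6 probe set, 1420249_s_at.

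The second probe sets of Ccl6 and Ccl9 gave differences of 0.75 and 0.71, where those that represent the genes gave 0.47 and 0.39. Ccl6 on 1420249_s_at read 1002, 935 and 1271 in the control livers and 2191, 1718 and 1512 in the Nfkbiz livers (0.75 ± 0.18). Ccl9 on 1448898_at read 3258, 2772 and 2688 against 5561, 5209 and 3649 (0.71 ± 0.17, limma adjusted p = 0.216). As on the first probe sets, the groups did not overlap. For Cxcl13, probe set 1417851_at read 33.1, 128 and 111 against 383, 338 and 148, a difference of 1.78 ± 0.53 with no overlap, where the probe set that represents the gene gave 0.75 with overlap. Cxcl16 on 1449195_s_at gave 0.43 ± 0.19 with no overlap, and the second Cxcl9 probe set, 1456907_at, gave 0.51 ± 0.31 with overlap. Ccr2 ran from 0.17 to 1.46 over 4 probe sets, the largest on 1460067_at, which read 31.1, 110 and 29.3 against 119, 97.4 and 180.3. How far the probe sets of a gene differ from each other was not tested.

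**Figure D4:**
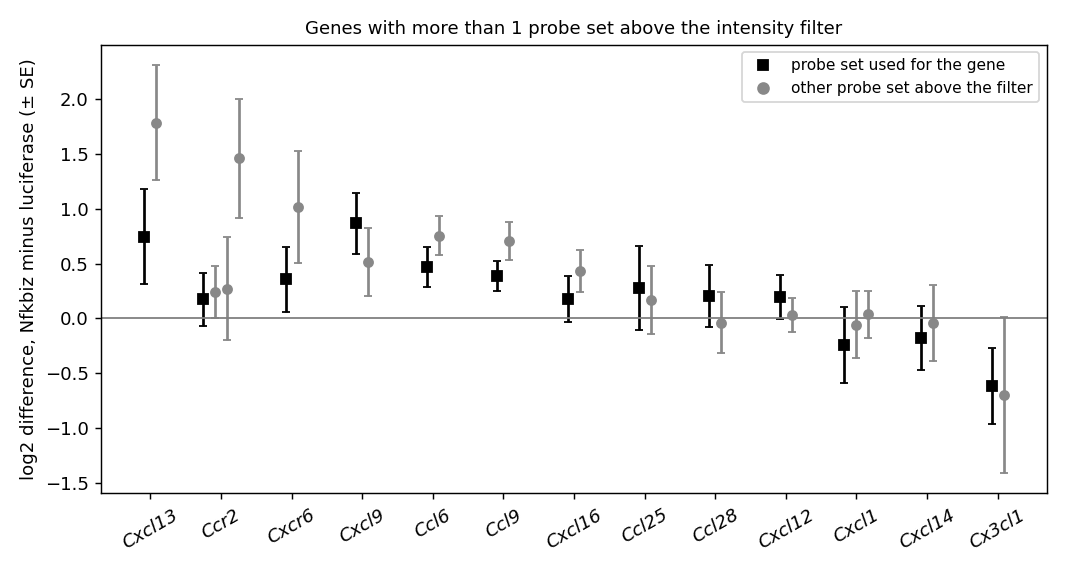
Log2 difference (y axis, Nfkbiz minus luciferase, with limma's SE) of each probe set above the filter for the 13 members with more than 1 such probe set (x axis), squares marking the probe set that represents the gene. Ccl6 and Ccl9 are above 0 on both of their probe sets, and Cxcl1 and Ccl28 have values on both sides of 0.

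The 13 members below the filter were the ligands Ccl1, Ccl11, Ccl12, Ccl20, Ccl22 and Cxcl3 and the receptors Ccr3, Ccr4, Ccr7, Ccr8, Ccr10, Cxcr2 and Cxcr5. Their readings lay between 1.93 and 104, and the filter stood at a geometric mean of 47.4 over the 6 arrays. Cxcr2, the receptor that neutrophils use for Cxcl1, Cxcl2 and Cxcl5, read 18.7, 14.9 and 10.1 in the control livers and 37.1, 22.6 and 41.3 in the Nfkbiz livers. Ccl12, singled out after its values were seen, read 7.01, 28.3 and 13.5 against 83.7, 43.2 and 79.0, and with no filter it joined the 5 ligands at an unadjusted p below 0.05. Ccl19 and the Ccl21 genes lie on 2 probe sets that carry several symbols and are not analysed here.

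Genes that work with the family but carry other symbols gave no call after adjustment. The 10 atypical receptors and further chemokine-related genes, all tested, had a median of 0.066 and 0 reached an unadjusted p below 0.05. Ackr1, the scavenging receptor of venular endothelium, had the smallest p among them (0.48 ± 0.26). Of 29 tested genes that signal below chemokine receptors, 0 passed over all genes, and the median was -0.063. At an unadjusted p below 0.05 there were 4 (13.8%), against 12.0% of all genes tested, a share near the background. Of these, 2 were higher and 2 lower. The 2 higher were the myeloid Src-family kinase gene Fgr (0.53 ± 0.19) and Rgs19, a brake on G protein signalling (0.52 ± 0.23). The 2 lower were Prex1, a Rac activator (-0.59 ± 0.20), and Gnai2, the main inhibitory G protein alpha subunit of leukocytes (-0.37 ± 0.14). In some alternatives limma's unadjusted p was above 0.05 for Gnai2, Rgs19 and Fgr. For Gnai2 it was 0.104 with median centring and 0.104 with the mean of probe sets. For Rgs19 it was 0.0629 with no filter and 0.0501 with the filter at the 60th percentile. For Fgr it was 0.153 with the most variable probe set.

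Cytokines that induce chemokines were positive for all 8 tested, with a median of 0.33, and 0 passed over all genes. Il1b (0.82 ± 0.33) and Il1a (0.65 ± 0.27) were higher at an unadjusted p below 0.05, 2 of the 8 (25%), against 5.03% of all genes. Tnf, Il6 and Ifng were below the filter. Of 15 interferon-gamma response genes, 1 rose over all genes, the immunity-related GTPase gene Ifi47 (0.86 ± 0.12, limma adjusted p = 0.0316), whose adjusted p was above 0.05 without any 1 of 5 arrays. The Ifi47 call was also lost with median centring (adjusted p = 0.0998), the replicate block (0.0669), the most variable probe set (0.0655) and no variance trend (0.312) in limma. At an unadjusted p below 0.05, 9 of the 15 (60%) were higher, against 5.03% of all genes, among them Irgm2 (0.58 ± 0.14) and Gbp2 (0.86 ± 0.23). No overlap between the groups was found for 10 (66.7%), all higher, against 8% of all genes. The summed intensity of the 15 was 28615 to 34395 on the luciferase and 40402 to 42577 on the Nfkbiz arrays. Cxcl9 belongs to the same response by its known regulation, and the part of interferon in its reading was not tested.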

How the data were processed

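The authors deposited MAS5 signal intensities, 1 linear value per probe set and array, and MAS5 was their method per the submitters' processing notes (no version is stated there). Livers were perfused with PBS, and 100 ng of total RNA went into biotin labelling, per the labels' protocols. The deposited intensities had a mean over the middle 96% of 495.1 to 496.3 on the 6 arrays, so the arrays were scaled alike, and their medians lay between 78.2 and 95.2. Precision is limited by having 3 arrays a group. Of 45037 probe sets, 34945 had 1 symbol in the platform annotation, 932 several and 9160 none listed. 

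Intensities were log2-transformed with no pseudocount. Each gene took its probe set with the highest mean, genes in the lowest 40% of probe sets (by mean log2 intensity, a geometric mean under 47.4) were left out, and 13312 were fitted with limma 3.58.1 (lmFit, eBayes with intensity trend) in R 4.3.3. P-values were two-sided and adjusted by Benjamini-Hochberg over all genes, with a threshold of 0.05. Probe sets were fitted the same way. The fit was tested on simulated data with noise drawn independently for each gene and array. Shifts shared by many genes of an array were not simulated, so that test does not cover them. The labels do not say that the samples are separate animals, so p-values cover only how far these samples vary, which may be technical. Errors of intensities are SD and those of differences limma's SE. No scan date was at hand to test as a batch. The members, the companion lists and the alternatives were chosen with earlier results of these data known. Values in every array were given for a preset set of well-known members, for members with no overlap or an unadjusted p below 0.05, and for those with the smallest p or the brightest signal. Ccl3, Ccl4, Ccl8, Ccl12, Ccl17, Cxcl5, Cxcl11, Cxcl13, Cxcl17, Cx3cl1, Ccr1 and Cxcr2 were added after their values were seen, and companion genes were named by smallest p. Pairs of arrays correlated between 0.959 and 0.971 across genes. The main fit did not pair arrays by replicate number. Deviations from the group means correlated at -0.062, 0.070 and -0.032 across genes for numbers 1, 2 and 3. For unlike numbers they correlated between -0.12 and 0.15. With 3 arrays a group, these values cannot show whether samples of the same number were handled together. Promoter motifs were searched in Python 3.11.15, and figures were drawn with matplotlib 3.10.9.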

Additional observations from a re-analysis of the deposited data

How the results depend on the processing

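Over the 17 alternatives 0 chemokine or receptor genes passed limma's adjusted threshold, and 24 of 37 kept their sign in every alternative in which they were tested. Over all genes, where 30 passed, 13 passed with the mean of probe sets, 10 with the most variable probe set, 0 without the variance trend (1350 at an unadjusted p below 0.05) and 62 with array weights, and between 8 and 19 with 1 array left out. With the replicate block 27 genes passed after adjustment, and 7 members were at an unadjusted p below 0.05, adding Cxcl2 and Cxcl17 to the 5, and 0 members passed after adjustment. Members at an unadjusted p below 0.05 numbered between 3 and 9 with 1 array left out, those that were higher between 1 and 9, with 1 without the first Nfkbiz and 9 without the first luciferase array, where between 8.61% and 14.1% of all genes were below 0.05 in either direction. Members with no overlap were 7 after quantile or loess normalization (18.5% and 18.3% of all genes) and between 6 and 11 of 37 with 1 array left out, where between 26.3% and 32.9% of all genes had no overlap. The ligands' median ran from 0.21 to 0.43 and the receptors' from -0.016 to 0.35 with 1 array left out, and with the most variable probe set both were 0.46 (ligands 0.455, receptors 0.464). Signs changed with the mean of probe sets for Ccl28 (-0.25), Ccr1 (-0.041) and Cxcl12 (-0.15), with array weights for Xcl1 (0.27), and on single probe sets for Cxcl1 (0.038) and Ccl28 (-0.037). With 1 array left out, differences ran from -0.0061 to 1.77 for Ccl8, -0.50 to 0.13 for Cxcr4, -0.042 to 0.59 for Ccl25, -0.044 to 0.38 for Cxcl12, -0.027 to 0.32 for Cxcl16, -0.32 to 0.48 for Xcl1, -0.0027 to 0.48 for Ccl4, -0.12 to 0.48 for Ccr1, -0.65 to 0.13 for Cxcl1, -0.46 to 0.0020 for Cxcl14, -0.72 to 0.33 for Xcr1 and -0.012 to 0.36 for Ccr2. The cause was not tested.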
